A study of Mus musculus with 12 samples.

Results

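The genes of the proteasome, the protease complex that degrades ubiquitin-tagged proteins, were examined in RNA sequencing of mouse resident peritoneal macrophages. They were taken by name and biotype: protein-coding genes whose symbol starts with Psma, Psmb, Psmc, Psmd, Psme, Psmf or Psmg and that had at least 10 counts over the 12 libraries. Of the 54532 genes in the table, 50 carried such a name and 49 passed the count minimum. Psmb11, the catalytic subunit known from the thymus, had 0 counts in every library. All 49 were among the 14506 genes tested. They comprised 14 constitutive core subunits, the 3 inducible subunits Psmb8, Psmb9 and Psmb10, 17 subunits of the regulatory particle, 7 assembly chaperones, 6 activator or inhibitor genes and the testis core subunit Psma8. The remaining gene, Psmc3ip, is a cofactor of meiotic recombination that shares the name but is not a part of the proteasome.

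The core particle is a barrel of stacked rings of alpha and beta subunits, and 3 of its beta subunits cut peptide bonds: Psmb5 gives the chymotrypsin-like activity, Psmb6 the caspase-like activity and Psmb7 the trypsin-like activity. In immune cells, above all after interferon-gamma, Psmb8, Psmb9 and Psmb10 can take the places of Psmb5, Psmb6 and Psmb7 in newly built particles, which are then called immunoproteasomes and shape the peptides shown on MHC class I. The regulatory particle caps the barrel: its base unfolds substrates with ATPases and its lid removes ubiquitin. Other caps, such as PA28, made of Psme1 and Psme2, open the barrel without ATP.

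The cells came from C57BL/6 mice and all spent 24 h in DMEM whose buffer was either MOPS or HEPES. There were 4 groups of 3 libraries: MOPS with LPS at 10 ng per ml for 2 h, HEPES with the same LPS, untreated MOPS and untreated HEPES. LPS, lipopolysaccharide, is a bacterial cell wall component that macrophages sense through the receptor TLR4. The study names pH 6.8 or 7.4 together with MOPS or HEPES, so MOPS is matched with pH 6.8 from the order of those words only. Buffer and pH changed together, and each comparison of media is a comparison of the medium as a whole. The labels used here do not say whether the 3 libraries of a group came from separate animals or cultures, so the p-values cover only the scatter among these libraries, which may be technical.

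The stretches of DNA around the starts of 4 catalytic genes are shown because the results turn on these pairs, Psmb8 with Psmb5 and Psmb9 with Psmb6. Psmb8 and Psmb9 lie close together, on opposite strands, in the MHC region of chromosome 17. Each sequence is a RefSeq window of 300 bases on GRCm38.p6, from 250 bases before to 50 bases after a RefSeq start of transcription, read along the gene. In the annotation of the counts Psmb8 starts at 34197721 and Psmb9 at 34187764, both upstream of and outside their windows. The Psmb8 window is chr17:34197945-34198244 on the plus strand, the Psmb5 window chr14:54617946-54618245 on the minus strand, the Psmb9 window chr17:34187281-34187580 on the minus strand and the Psmb6 window chr11:70525107-70525406 on the plus strand. Capitals mark TGANNNNGC, the core of the antioxidant response element through which Nrf1 and Nrf2 act, and, in the Psmb8 window alone of these 4, TTCNNNGAA, the gamma-activated site bound by STAT factors.
Psmb8: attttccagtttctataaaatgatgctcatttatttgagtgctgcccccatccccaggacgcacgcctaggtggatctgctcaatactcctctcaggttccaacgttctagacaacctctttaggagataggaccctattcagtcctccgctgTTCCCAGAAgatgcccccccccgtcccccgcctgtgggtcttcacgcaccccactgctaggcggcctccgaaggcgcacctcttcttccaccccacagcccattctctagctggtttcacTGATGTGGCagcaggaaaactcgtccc
Psmb5: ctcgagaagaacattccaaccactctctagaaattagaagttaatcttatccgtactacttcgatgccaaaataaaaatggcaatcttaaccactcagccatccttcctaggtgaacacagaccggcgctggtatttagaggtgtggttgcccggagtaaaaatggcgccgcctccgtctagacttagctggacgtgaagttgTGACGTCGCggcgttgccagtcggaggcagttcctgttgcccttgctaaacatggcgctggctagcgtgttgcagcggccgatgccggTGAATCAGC
Psmb9: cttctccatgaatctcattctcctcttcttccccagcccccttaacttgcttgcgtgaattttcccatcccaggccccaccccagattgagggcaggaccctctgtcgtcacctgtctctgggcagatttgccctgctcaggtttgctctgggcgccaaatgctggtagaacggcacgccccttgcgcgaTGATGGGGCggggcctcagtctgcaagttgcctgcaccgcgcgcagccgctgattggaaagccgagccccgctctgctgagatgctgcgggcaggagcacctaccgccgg
Psmb6: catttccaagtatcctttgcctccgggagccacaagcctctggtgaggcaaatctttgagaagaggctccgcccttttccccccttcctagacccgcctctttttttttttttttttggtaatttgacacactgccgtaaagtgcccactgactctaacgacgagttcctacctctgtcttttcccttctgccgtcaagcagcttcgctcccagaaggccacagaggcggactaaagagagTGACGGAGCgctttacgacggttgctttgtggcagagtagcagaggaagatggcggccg
TGANNNNGC stood once in the Psmb8, Psmb9 and Psmb6 windows and at 2 places in the Psmb5 window. Over both strands it stood in 56.8% of the 44 windows that matched 41 of the 49 genes, and in 41.3% of all 32851 windows in the table. By class it stood in 9 of 12 windows of the constitutive core, in 2 of 3 of the inducible subunits and in 6 of 15 of the regulatory particle. GAAANNGAA, the core of the interferon-stimulated response element, stood in 15.9% of the proteasome gene windows against 8.56% of all windows, and in none of the 3 windows of the inducible subunits. The outer starts of Psmb8 and Psmb9 in the annotation of the counts lie outside these windows and were not searched. TTCNNNGAA stood in 6.82% against 8.30%, and the kappaB consensus in 2.27% against 4.51%. A match is a description of letters and does not show binding.

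Library totals ran between 20114613 and 24734853 counts, and proteasome genes took 0.380% to 0.450% of them. Levels are given as CPM, counts scaled to a common library size with TMM correction for composition, or as RPKM, the same per kilobase of the gene length in the table. A gene is called higher or lower where edgeR's quasi-likelihood test gave an adjusted p under 0.05 over all 14506 genes. All 9 markers of large peritoneal macrophages were detected and tested. Their summed level was 20402 to 23269 CPM in MOPS with LPS, 32673 to 34326 CPM in HEPES with LPS, 16092 to 16306 CPM in untreated MOPS and 24931 to 26300 CPM in untreated HEPES. It was thus lower in MOPS without overlap in both LPS states, but most of the sum was 1 gene, Lyz2. Lyz2 averaged 13827 CPM in MOPS with LPS, 23350 CPM in HEPES with LPS, 12599 CPM in untreated MOPS and 21982 CPM in untreated HEPES. Between the media the sums therefore mainly follow Lyz2, and they do not stand for the list. With LPS another marker, Cd14, rose by more CPM than Lyz2. Its mean was 4816 CPM in MOPS with LPS against 605 CPM in untreated MOPS, and 6943 CPM in HEPES with LPS against 517 CPM in untreated HEPES. Of the 9 markers, 4 were called higher and 3 lower in untreated MOPS and 2 higher and 4 lower in MOPS with LPS. Markers of B cells, which share the peritoneal cavity, were also present: their summed level was 128 to 143 CPM in MOPS with LPS, 35.4 to 42.0 CPM in HEPES with LPS, 219 to 228 CPM in untreated MOPS and 112 to 187 CPM in untreated HEPES. The 9 markers of dendritic cells and small peritoneal macrophages, all detected, summed to 247 to 267 CPM in MOPS with LPS, 291 to 352 CPM in HEPES with LPS, 186 to 208 CPM in untreated MOPS and 193 to 213 CPM in untreated HEPES. Single members of that list differed more: 5 of 9 were called higher and 1 lower in untreated MOPS and 4 higher and 4 lower in MOPS with LPS, and Clec9a, a marker of cross-presenting dendritic cells, had 9.61, 9.72 and 9.53 CPM in untreated MOPS, against 1.15, 1.36 and 1.62 CPM in untreated HEPES. The part of these markers in the results on proteasome genes was not tested. Markers of T and NK cells summed to at most 4.47 CPM, with Ncr1 at 0 in all groups. In bulk samples, fewer cells of a type and less RNA per cell cannot be told apart.

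Per length, the median constitutive core subunit stood above Psmb8 and Psmb9 in every group. Levels compared between genes in this way depend on the gene length used. The median level of the 14 constitutive core subunits was 50.7 RPKM in MOPS with LPS, 44.5 RPKM in HEPES with LPS, 38.0 RPKM in untreated MOPS and 33.5 RPKM in untreated HEPES. The median of the regulatory particle was 38.1 RPKM in MOPS with LPS, 39.2 RPKM in HEPES with LPS, 21.9 RPKM in untreated MOPS and 20.9 RPKM in untreated HEPES. Among the inducible subunits Psmb10 was at the top in every group and Psmb9 at the bottom. Psmb10 averaged 50.8 ± 1.6 RPKM in MOPS with LPS, 52.2 ± 3.5 RPKM in HEPES with LPS, 36.9 ± 1.0 RPKM in untreated MOPS and 41.7 ± 3.4 RPKM in untreated HEPES (SD, n = 3 each). Psmb8 averaged 20.9 ± 0.47 RPKM in MOPS with LPS, 16.8 ± 0.30 RPKM in HEPES with LPS, 18.7 ± 0.79 RPKM in untreated MOPS and 18.9 ± 1.2 RPKM in untreated HEPES. Psmb9 averaged 5.10 ± 0.17 RPKM in MOPS with LPS, 4.91 ± 0.34 RPKM in HEPES with LPS, 6.08 ± 0.39 RPKM in untreated MOPS and 7.75 ± 0.23 RPKM in untreated HEPES. Psmb9 was thus below every constitutive core subunit in all 4 groups, and the testis subunit Psma8 lay lower still, at a mean of 0.640 to 0.898 RPKM.

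**Figure D1:**
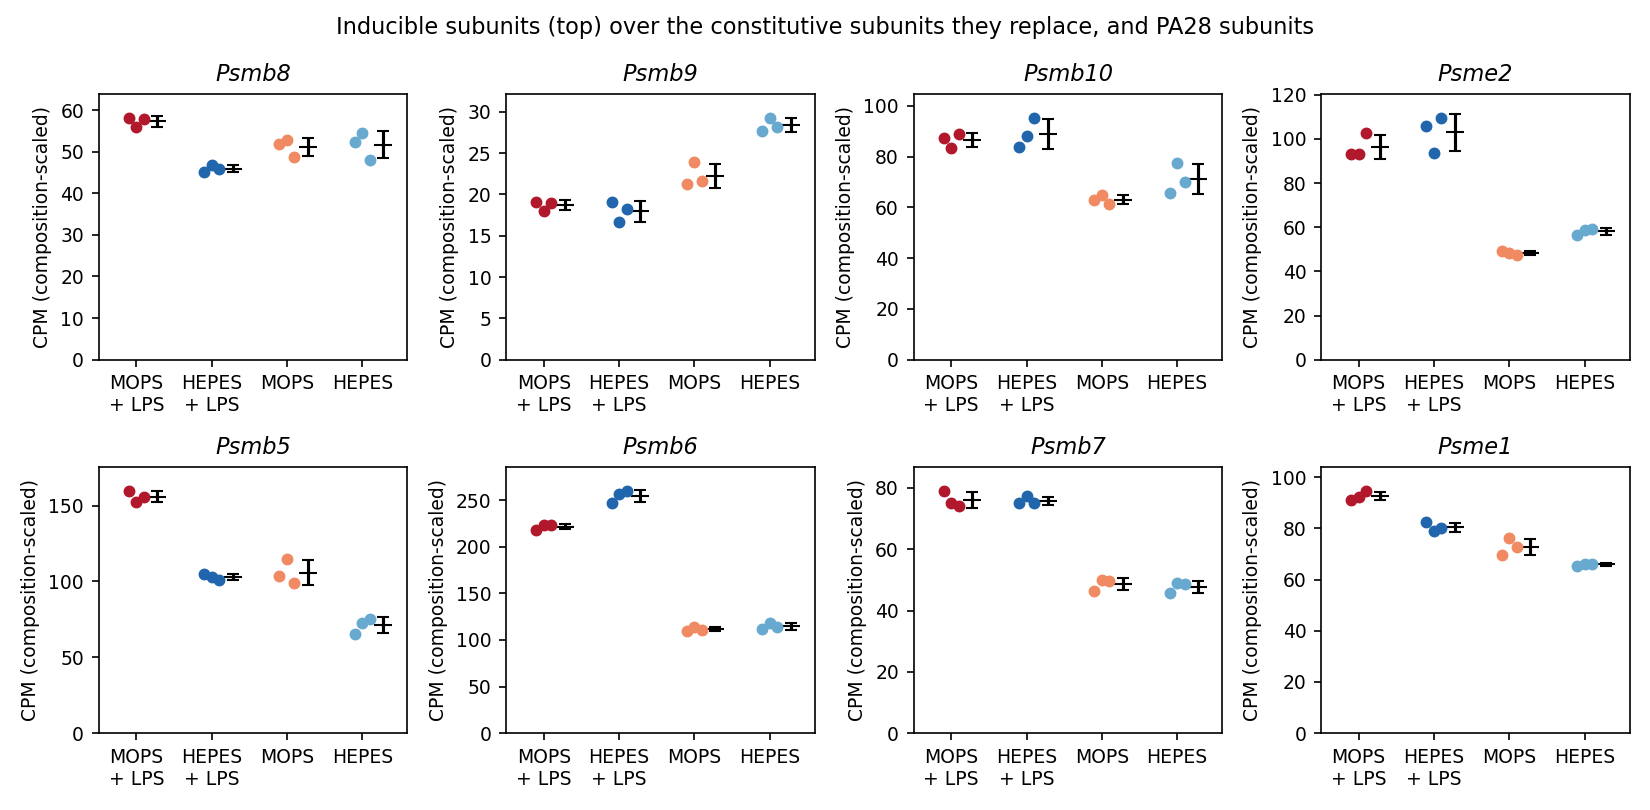
Level of each inducible subunit above the constitutive subunit it can replace, and of the PA28 subunits Psme2 and Psme1, as TMM-scaled CPM (vertical axis, from 0) in each of the 12 libraries (points) by group, with the mean and SD of 3 libraries at the right of the points. Psmb5 and Psmb9 separated the untreated media in opposite directions, and Psmb8 separated the media only where LPS was present. Psmb5, Psmb6, Psmb7, Psmb10, Psme1 and Psme2 were higher with LPS than without it in both media under the TMM scaling drawn here. Of these only Psmb6 and Psme2 were also called higher in both media under total counts.

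Without LPS, RNA of most constitutive core and regulatory particle subunits was slightly higher in MOPS than in HEPES, while that of 2 of the 3 inducible subunits was lower. Of the 49, MOPS had 25 higher and 6 lower; over all tested genes 24.3% were higher and 25.4% lower. The constitutive core had 8 of 14 subunits higher and 0 lower, with a median log2 change of 0.16, and the regulatory particle 13 of 17 higher and 1 lower, with a median of 0.19, against a median of -0.01 over all genes. All 3 base subunits without ATPase activity, Psmd1, Psmd2 and Psmd4, were higher, by 0.26 to 0.27, as were 5 of the 6 ATPases. These are small shifts, and only Psmd11, Psmb5 and Psme4 passed 0.5 on the log2 scale.

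Psmd11, the lid subunit that clamps the regulatory particle to the core, had 89.0, 94.4 and 91.7 CPM in MOPS, against 57.4, 61.0 and 59.7 CPM in HEPES. Every MOPS library stood above every HEPES library, and the log2 change was 0.63 ± 0.043 (SE; adjusted p = 1.74e-13 by edgeR). Psmb5, the chymotrypsin-like subunit, had 104, 115 and 98.9 CPM in MOPS, against 65.1, 72.7 and 75.4 CPM in HEPES. Its groups did not overlap either, with a log2 change of 0.58 ± 0.052 (adjusted p = 1.88e-10 by edgeR). Psme4, which encodes the ATP-independent cap PA200, had 122, 130 and 132 CPM in MOPS, against 91.7, 85.6 and 91.2 CPM in HEPES, again with all MOPS libraries higher and a log2 change of 0.52 ± 0.044. The other catalytic subunits of the constitutive core were not called: Psmb6 had 110, 114 and 111 CPM in MOPS, against 112, 119 and 114 CPM in HEPES, and Psmb7 had 46.3, 49.9 and 49.7 CPM in MOPS, against 45.6, 49.0 and 48.8 CPM in HEPES. Both pairs of groups overlapped, with log2 changes of -0.04 ± 0.039 for Psmb6 and 0.03 ± 0.048 for Psmb7.

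The inducible subunits went the other way or were not called. Psmb9 had 21.3, 23.9 and 21.6 CPM in MOPS, against 27.6, 29.3 and 28.2 CPM in HEPES. All 3 MOPS libraries lay below all 3 HEPES libraries, and the log2 change was -0.35 ± 0.066 (adjusted p = 5.06e-05 by edgeR). Psmb10 had 63.0, 64.7 and 61.3 CPM in MOPS, against 65.8, 77.4 and 69.9 CPM in HEPES, with no overlap and a log2 change of -0.17 ± 0.054 (adjusted p = 0.00815 by edgeR). The gap was narrow, between 64.7 and 65.8 CPM, and the call was lost without HEPES replicate 5, with an adjusted p of 0.119. Psmb8 had 51.8, 52.9 and 48.8 CPM in MOPS, against 52.4, 54.4 and 48.1 CPM in HEPES, which overlap, with a log2 change of -0.01 ± 0.050. The summed B cell marker level in the same libraries was higher in MOPS, with 5 of 10 markers called higher and 1 lower; its part in these results was not tested.

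Caps and chaperones were divided. Psme1 had 69.7, 76.1 and 72.6 CPM in MOPS, against 65.4, 66.2 and 66.3 CPM in HEPES, and its PA28 partner Psme2 had 49.3, 48.3 and 47.2 CPM in MOPS, against 56.4, 58.8 and 59.2 CPM in HEPES. So within 1 ring the subunits differed in opposite directions: Psme1 was higher in MOPS, by 0.14 ± 0.043 on the log2 scale (adjusted p = 0.00675 by edgeR, and 0.0717 without MOPS replicate 2), and Psme2 was lower, by -0.27 ± 0.054. Psmd10, the base chaperone gankyrin, had 25.5, 23.7 and 25.1 CPM in MOPS, against 30.1, 33.3 and 29.2 CPM in HEPES, lower in all 3 libraries, with a log2 change of -0.32 ± 0.062. Psmd8, a lid subunit, had 182, 185 and 176 CPM in MOPS, against 216, 220 and 228 CPM in HEPES. Among the genes taken by name it was the only lid, base or constitutive core subunit called lower, with a log2 change of -0.29 ± 0.052. Among the other base chaperones Psmd5 was higher, by 0.40 ± 0.058, and Psmd9 lower, by -0.20 ± 0.081. None of the 4 core chaperones, Psmg1 to Psmg4, was called.

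**Figure D2:**
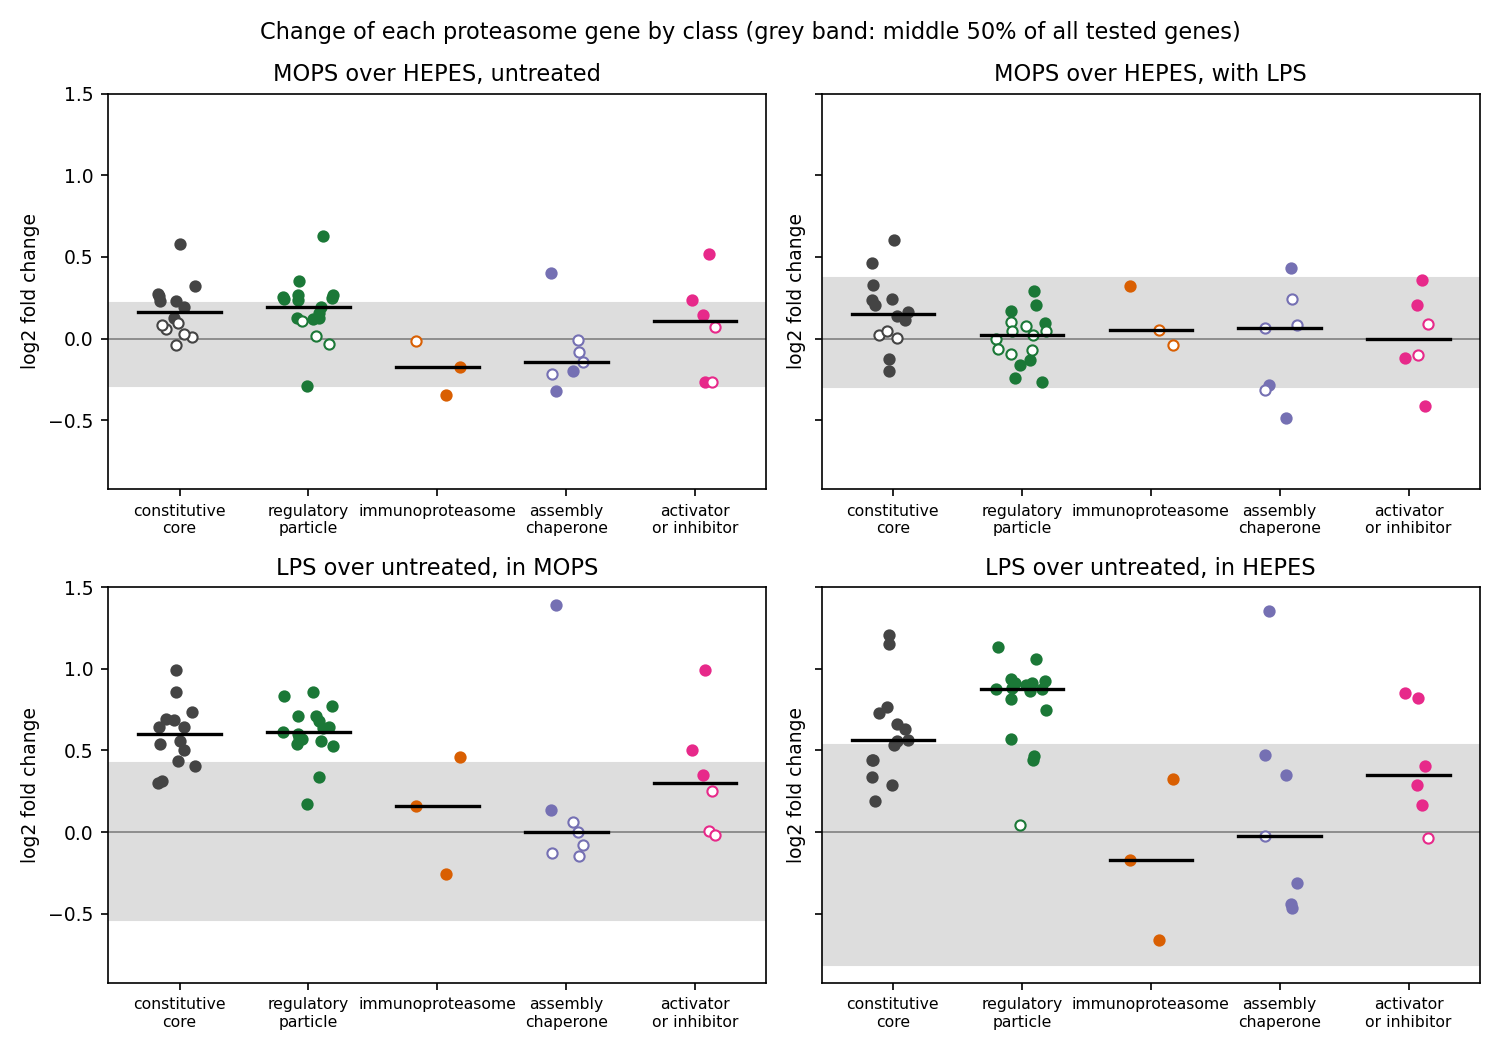
Log2 fold change of each gene (points) in the 4 comparisons, by class; filled points have an edgeR adjusted p under 0.05, black lines are class medians and the grey band holds the middle 50% of all tested genes; Psma8 and Psmc3ip are not drawn. In both LPS comparisons every core and regulatory particle subunit stood above 0 under the TMM scaling drawn here, though under total counts calls of the family were 18 higher and 17 lower in MOPS and 20 higher and 21 lower in HEPES; the inducible subunits spread around 0.

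With LPS in both media, the split between the media was less uniform. MOPS with LPS had 17 of the 49 higher and 10 lower than HEPES with LPS, and 26.9% of all tested genes were higher and 26.9% lower, so the counts lie near the background. With total counts in place of TMM scaling they were 26 higher and 6 lower, which is 81.2% higher of those called in place of 63.0%; all genes moved likewise, to 62.4% in place of 50.04%. The constitutive core had 9 of 14 subunits higher and 2 lower, with a median log2 change of 0.15, and the regulatory particle 4 of 17 higher and 4 lower, with a median of 0.02; the median over all genes was 0.00.

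Psmb5 had 159, 152 and 155 CPM in MOPS with LPS, against 105, 103 and 101 CPM in HEPES with LPS. Its log2 change of 0.60 ± 0.052 was close to that without LPS, and no library overlapped (adjusted p = 5.87e-11 by edgeR). Psma5, an alpha ring subunit, had 107, 111 and 110 CPM in MOPS with LPS, against 79.7, 79.6 and 77.9 CPM in HEPES with LPS. It too was higher in every MOPS library, with a log2 change of 0.47 ± 0.043. Psmb6 was lower: it had 218, 223 and 223 CPM in MOPS with LPS, against 247, 257 and 260 CPM in HEPES with LPS, with no overlap and a log2 change of -0.20 ± 0.038. Psmb7, which overlaps Nek6 on the opposite strand, had 78.92, 75.05 and 73.97 CPM in MOPS with LPS, against 74.95, 77.21 and 74.98 CPM in HEPES with LPS, overlapped and was not called, with a log2 change of 0.01 ± 0.048. The 3 catalytic subunits of the constitutive core therefore had a higher, a lower and an uncalled member in this comparison.

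Of the inducible subunits only Psmb8 was called with LPS present. Psmb8 had 58.2, 55.8 and 57.9 CPM in MOPS with LPS, against 45.0, 46.7 and 45.9 CPM in HEPES with LPS. All 3 MOPS libraries stood above, with a log2 change of 0.32 ± 0.053 (adjusted p = 6.59e-06 by edgeR). Psmb9 had 19.0, 18.0 and 19.0 CPM in MOPS with LPS, against 19.1, 16.6 and 18.2 CPM in HEPES with LPS, and Psmb10 had 87.3, 83.5 and 89.0 CPM in MOPS with LPS, against 83.6, 88.1 and 95.3 CPM in HEPES with LPS. Both overlapped, with log2 changes of 0.05 ± 0.076 for Psmb9 and -0.04 ± 0.054 for Psmb10. In the same libraries 9 of the 10 B cell markers were called higher in MOPS with LPS and 1 lower, with a median log2 change of 1.71; their part in the Psmb8 difference was not tested.

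Among the caps, Psme1 had 91.3, 92.2 and 94.5 CPM in MOPS with LPS, against 82.4, 78.9 and 80.3 CPM in HEPES with LPS, higher in every library by 0.20 ± 0.044 on the log2 scale. Psme2 had 92.9, 93.1 and 102 CPM in MOPS with LPS, against 106, 93.4 and 110 CPM in HEPES with LPS; the groups overlapped and the change of -0.10 ± 0.052 was not called, but passed the test without MOPS with LPS replicate 9 or without HEPES with LPS replicate 11. Psme2b, a near copy of Psme2 whose reads may be split with it, had 35.1, 35.8 and 33.95 CPM in MOPS with LPS, against 39.2, 55.3 and 45.2 CPM in HEPES with LPS, lower without overlap by -0.41 ± 0.12. PA200 (Psme4) was again higher, by 0.36 ± 0.045. The base chaperones Psmd9 and Psmd10 were lower: Psmd9 had 15.2, 17.2 and 19.8 CPM in MOPS with LPS, against 22.8, 26.1 and 24.0 CPM in HEPES with LPS, and Psmd10 had 67.3, 64.7 and 62.3 CPM in MOPS with LPS, against 85.3, 77.0 and 74.2 CPM in HEPES with LPS. Neither overlapped, with log2 changes of -0.48 ± 0.085 for Psmd9 and -0.28 ± 0.055 for Psmd10. Psmg2, a core chaperone, had 10.4, 9.84 and 12.7 CPM in MOPS with LPS, against 6.80, 9.26 and 8.34 CPM in HEPES with LPS, higher without overlap by 0.43 ± 0.12; without HEPES with LPS replicate 10 its adjusted p by edgeR was 0.0844.

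With LPS most proteasome genes were higher in both media under TMM scaling, while under total counts about as many were lower as higher. In MOPS 38 of the 49 genes were higher with LPS and 1 lower, against 34.1% and 34.9% of all tested genes; in HEPES 39 were higher and 5 lower, against 35.6% and 41.2%. All 14 constitutive core subunits were called higher in each medium, with medians of 0.60 in MOPS and 0.56 in HEPES, as were 17 of 17 regulatory particle subunits in MOPS and 16 of 17 in HEPES, with medians of 0.61 and 0.88. The median over all genes was -0.03 in MOPS and -0.08 in HEPES. These directions rest on the scaling: with total counts in its place the median over all genes was -0.55 in MOPS and -0.67 in HEPES, and the calls were 18 higher and 17 lower in MOPS and 20 higher and 21 lower in HEPES. Under total counts the core had 7 higher and 2 lower of 14 in MOPS and 4 higher and 5 lower in HEPES, and the regulatory particle 9 higher and 2 lower of 17 in MOPS and 13 higher and 3 lower in HEPES. Under either scaling the class medians of the core and the regulatory particle lay above that of all genes.

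**Figure D3:**
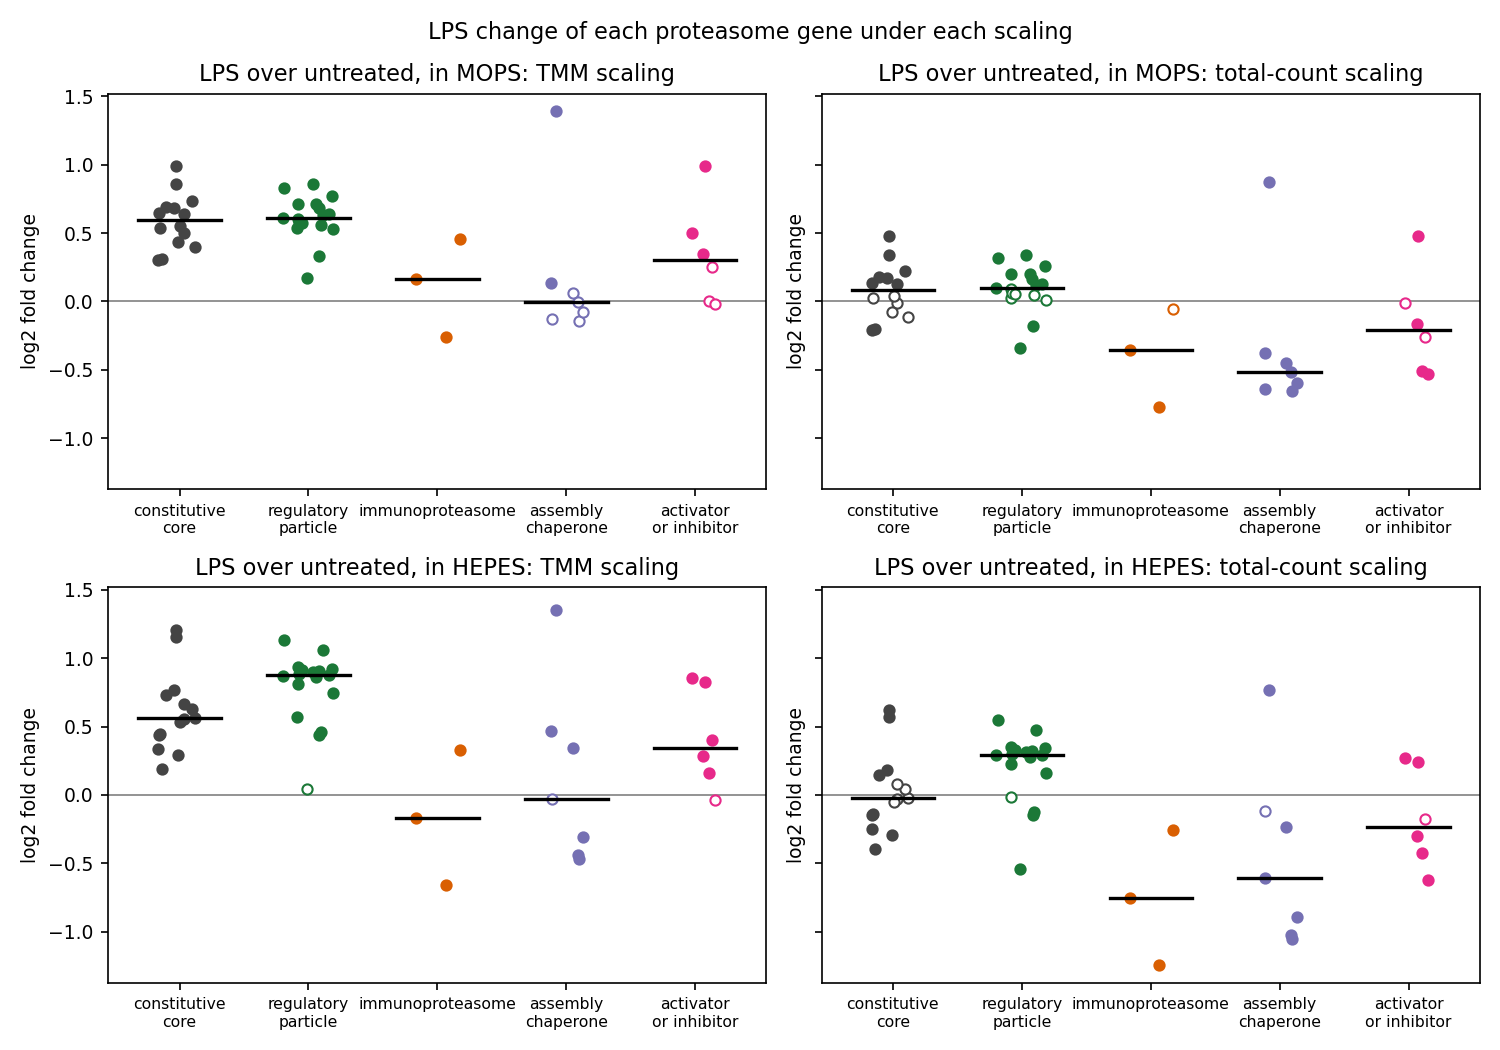
Log2 fold change with LPS of each gene (points) by class in MOPS (top) and HEPES (bottom), with TMM scaling on the left and total-count scaling on the right; filled points have an edgeR adjusted p under 0.05, black lines are class medians, and Psma8 and Psmc3ip are not drawn. The whole set lies lower under total counts, where calls in MOPS were 18 higher and 17 lower.

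Psmd10, the chaperone gankyrin, had the largest rise of the family in both media and rose under both scalings. It had 67.3, 64.7 and 62.3 CPM in MOPS with LPS, against 25.5, 23.7 and 25.1 CPM in untreated MOPS, and 85.3, 77.0 and 74.2 CPM in HEPES with LPS, against 30.1, 33.3 and 29.2 CPM in untreated HEPES. The log2 change was 1.39 ± 0.060 in MOPS and 1.35 ± 0.057 in HEPES, and the groups lay far apart. Psmb6 rose most of the catalytic subunits, under both scalings: it had 218, 223 and 223 CPM in MOPS with LPS, against 110, 114 and 111 CPM in untreated MOPS, and 247, 257 and 260 CPM in HEPES with LPS, against 112, 119 and 114 CPM in untreated HEPES. Its log2 change was 0.99 ± 0.039 in MOPS and 1.15 ± 0.039 in HEPES. Psma6, an alpha ring subunit, had 217, 196 and 199 CPM in MOPS with LPS, against 110, 117 and 111 CPM in untreated MOPS, and 221, 222 and 224 CPM in HEPES with LPS, against 95.7, 98.5 and 94.2 CPM in untreated HEPES. It also rose under both scalings, by 0.86 ± 0.042 in MOPS and 1.21 ± 0.042 in HEPES. Psmb7 rose by 0.64 ± 0.048 in MOPS and 0.66 ± 0.048 in HEPES, the last not called under total counts. Psmb5 rose by 0.56 ± 0.051 in MOPS and 0.53 ± 0.053 in HEPES, where total counts gave uncalled values of 0.04 and -0.05.

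The inducible subunits differed among themselves: 2 of 3 were called higher and 1 lower with LPS in MOPS, and 1 higher and 2 lower in HEPES. Psmb9 was lower with LPS in both media and under both scalings: it had 19.0, 18.0 and 19.0 CPM in MOPS with LPS, against 21.3, 23.9 and 21.6 CPM in untreated MOPS, and 19.1, 16.6 and 18.2 CPM in HEPES with LPS, against 27.6, 29.3 and 28.2 CPM in untreated HEPES. All LPS libraries lay below all untreated libraries of their medium, and the log2 changes were -0.26 ± 0.071 in MOPS (adjusted p = 0.00206 by edgeR) and -0.66 ± 0.070 in HEPES (adjusted p = 6.99e-10 by edgeR). Psmb8 was higher with LPS in MOPS, at 58.2, 55.8 and 57.9 CPM, against 51.8, 52.9 and 48.8 CPM in untreated MOPS, and lower in HEPES, at 45.0, 46.7 and 45.9 CPM, against 52.4, 54.4 and 48.1 CPM in untreated HEPES. Neither pair of groups overlapped. Its log2 change of 0.16 ± 0.051 in MOPS turned to -0.35 under total counts, called lower, and its change of -0.17 ± 0.052 in HEPES lost its call without HEPES with LPS replicate 10 or 12 (adjusted p = 0.0848 and 0.063 by edgeR). Psmb10 rose by 0.46 ± 0.054 in MOPS and 0.33 ± 0.054 in HEPES, turning to -0.06 (not called) and -0.26 (called lower) under total counts. B cell markers fell with LPS, 8 of 10 in MOPS and 10 of 10 in HEPES, with medians of -0.72 and -2.01; their part in the change of Psmb9 and Psmb8 was not tested. Psmb9 also overlaps Tap1 on the opposite strand, over 5.79% of its exon bases, and the strand setting of the counting is not given in the sources used here; Tap1 itself had log2 changes of -0.43 in MOPS and -0.30 in HEPES.

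PA28 was divided again. Psme2 had 92.9, 93.1 and 102 CPM in MOPS with LPS, against 49.3, 48.3 and 47.2 CPM in untreated MOPS, and 106, 93.4 and 110 CPM in HEPES with LPS, against 56.4, 58.8 and 59.2 CPM in untreated HEPES. It rose by 0.99 ± 0.053 in MOPS and 0.82 ± 0.052 in HEPES on the log2 scale, under both scalings and with no overlap. Psme1 rose less, by 0.35 ± 0.044 in MOPS and 0.29 ± 0.044 in HEPES, and turned to -0.17 and -0.30 under total counts. Psmf1, the inhibitor PI31, was not called in either medium, with log2 changes of -0.02 ± 0.072 in MOPS and -0.04 ± 0.073 in HEPES; under total counts it was called lower in both. The core chaperones taken by name, Psmg1 to Psmg4, showed no such rise. In HEPES Psmg1 had 8.49, 8.19 and 9.51 CPM with LPS, against 12.15, 11.99 and 12.06 CPM untreated, and Psmg2 had 6.80, 9.26 and 8.34 CPM with LPS, against 10.97, 10.48 and 11.76 CPM untreated. Both fell without overlap, with log2 changes of -0.47 ± 0.10 for Psmg1 and -0.44 ± 0.12 for Psmg2 (-0.28 without HEPES with LPS replicate 10, adjusted p = 0.0447 by edgeR), and in MOPS 0 of the 4 core chaperones were called under TMM scaling and 4 were called lower under total counts.

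The LPS change itself differed between the media for 19 of the 49 genes. Of these 4 had a higher change in MOPS than in HEPES and 15 a lower one, against 21.9% and 17.6% of all tested genes. The regulatory particle made up most of them: 10 of its 17 subunits had a lower LPS change in MOPS and 0 a higher one, with a median difference of -0.22 on the log2 scale against 0.06 over all genes. By part, 5 of 8 lid subunits, 3 of 6 ATPases and 2 of 3 other base subunits were called lower. The constitutive core had 1 higher and 2 lower of 14, with a median difference of -0.03. Of the inducible subunits 2 of 3 had a higher LPS change in MOPS. Under total counts the family's calls were 12 higher and 11 lower, the regulatory particle's 2 higher and 8 lower, and all 3 inducible subunits were called higher.

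**Figure D4:**
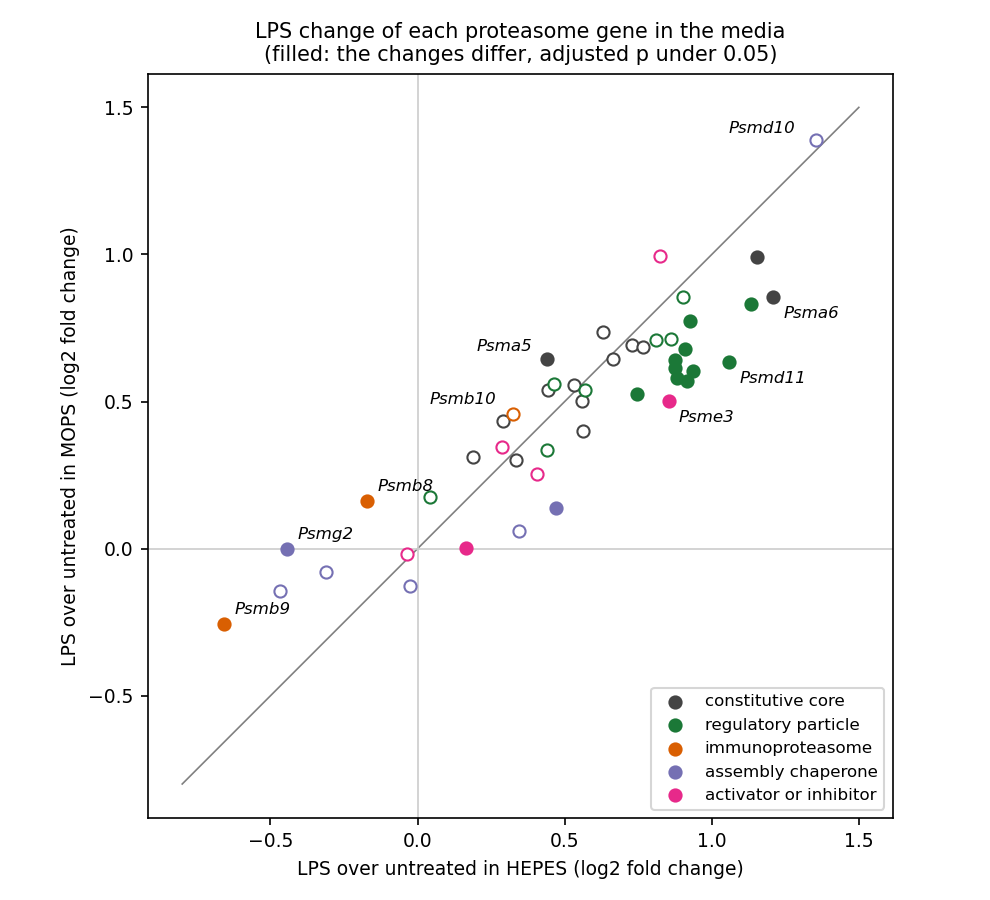
Log2 fold change with LPS in MOPS (vertical axis) against that in HEPES (horizontal axis) for each gene, coloured by class, with TMM scaling; the grey diagonal marks equal change, filled points have an edgeR adjusted p under 0.05 for the difference, and Psma8 and Psmc3ip are not drawn. The axes share no libraries, most regulatory particle subunits lie under the diagonal, and Psmb8 and Psmb9 lie above it.

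Among genes with a lower LPS change in MOPS, Psmd11 had the largest difference. It had 141, 139 and 147 CPM in MOPS libraries with LPS, 119, 126 and 126 CPM in HEPES libraries with LPS, 89.0, 94.4 and 91.7 CPM in untreated MOPS and 57.4, 61.0 and 59.7 CPM in untreated HEPES. Its LPS change was 0.64 in MOPS and 1.06 in HEPES, a difference of -0.42 ± 0.060 (adjusted p = 1.18e-06 by edgeR), so the gap between the media narrowed with LPS. Psma6 had a difference of -0.35 ± 0.059: above HEPES in every untreated MOPS library, it was called lower in MOPS with LPS, by -0.13 ± 0.041, a call that total counts and the omission of MOPS with LPS replicate 9 removed. Psme3, the nuclear cap PA28 gamma, had 130, 133 and 127 CPM in MOPS libraries with LPS, 145, 141 and 138 CPM in HEPES libraries with LPS, 94.0, 89.6 and 91.9 CPM in untreated MOPS and 79.0, 78.0 and 77.2 CPM in untreated HEPES. Its order thus turned round between LPS and untreated libraries, although total counts, or the omission of MOPS with LPS replicate 9, left the lower level in MOPS with LPS uncalled, with a difference of -0.35 ± 0.057 (adjusted p = 9.22e-06 by edgeR).

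On the other side, Psmb9 had a difference of 0.40 ± 0.10 (adjusted p = 0.00176 by edgeR): the fall with LPS was larger in HEPES, and the media stood apart without LPS but overlapped with it. Psmb8 had a difference of 0.33 ± 0.073 (adjusted p = 0.000483 by edgeR) with the media overlapping without LPS and apart with it. Psmb10 and Psme2 had differences of 0.13 ± 0.076 and 0.17 ± 0.075, which were called under total counts only (adjusted p = 0.0301 and 0.0108 by edgeR). Psmb5 and Psmb7, the constitutive partners of Psmb8 and Psmb10, had differences of 0.02 ± 0.074 and -0.02 ± 0.068, which were not called. Psmg2 had 0.44 ± 0.17 (adjusted p = 0.0343 by edgeR), a call that was lost under DESeq2, under RLE size factors and on omission of any of 6 single libraries. Of the B cell markers 9 of 10 also had a higher LPS change in MOPS, with a median difference of 1.23; their part in the Psmb8 and Psmb9 differences was not tested.

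The balance of inducible to constitutive subunit was followed within each library as a ratio of RPKM, which does not depend on library scaling. Its size does depend on the gene lengths used, from 899 bases for Psmb5 to 3659 bases for Psmb9 among these 6 genes. It is therefore read between groups and not as a proportion of subunits. For Psmb8 over Psmb5 the ratio was 0.1198, 0.1205 and 0.1224 in MOPS libraries with LPS, 0.141, 0.149 and 0.150 in HEPES libraries with LPS, 0.165, 0.151 and 0.162 in untreated MOPS and 0.265, 0.246 and 0.210 in untreated HEPES. The ratio was lower in MOPS than in HEPES in all libraries of each LPS state, and lower with LPS than without it in all libraries of each medium. The mean log2 difference was -0.43 for MOPS over HEPES, labels permuted within LPS state, and -0.55 for LPS over untreated, permuted within medium (2-sided exact permutation p = 0.005 each, adjusted p = 0.0075 over 6 tests, with 0.005 the smallest p these 400 arrangements allow).

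For Psmb9 over Psmb6 the ratio was 0.0446, 0.0412 and 0.0436 in MOPS libraries with LPS, 0.0394, 0.0330 and 0.0359 in HEPES libraries with LPS, 0.0990, 0.107 and 0.0998 in untreated MOPS and 0.127, 0.126 and 0.127 in untreated HEPES. All LPS libraries of each medium lay below all its untreated libraries, with a mean log2 difference of -1.53 (2-sided exact permutation p = 0.005, adjusted p = 0.0075). For the medium the sign turned with LPS: the log2 difference of MOPS over HEPES was 0.26 with LPS and -0.31 without it, so that the mean of -0.03 had an exact permutation p of 0.81. For Psmb10 over Psmb7 the ratio averaged 2.29 ± 0.11 in MOPS with LPS, 2.36 ± 0.17 in HEPES with LPS, 2.60 ± 0.13 in untreated MOPS and 2.98 ± 0.16 in untreated HEPES (SD, n = 3 each). It was lower with LPS, with a mean log2 difference of -0.26 (2-sided exact permutation p = 0.005, adjusted p = 0.0075). For the medium the difference was -0.12 (2-sided exact permutation p = 0.04, adjusted p = 0.048), but taking group medians gave -0.10 with an exact permutation p of 0.14, and 9 of the 12 repeats that left out a library also missed the threshold. So in all 3 pairs the RNA ratio of the inducible subunit to its constitutive partner was lower with LPS at 2 h. B cell markers also fell with LPS, and their part in these ratios was not tested. Psmb9 and Psmb7 overlap Tap1 and Nek6 on the opposite strand, and the strand setting of the counting is not given.

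**Figure D5:**
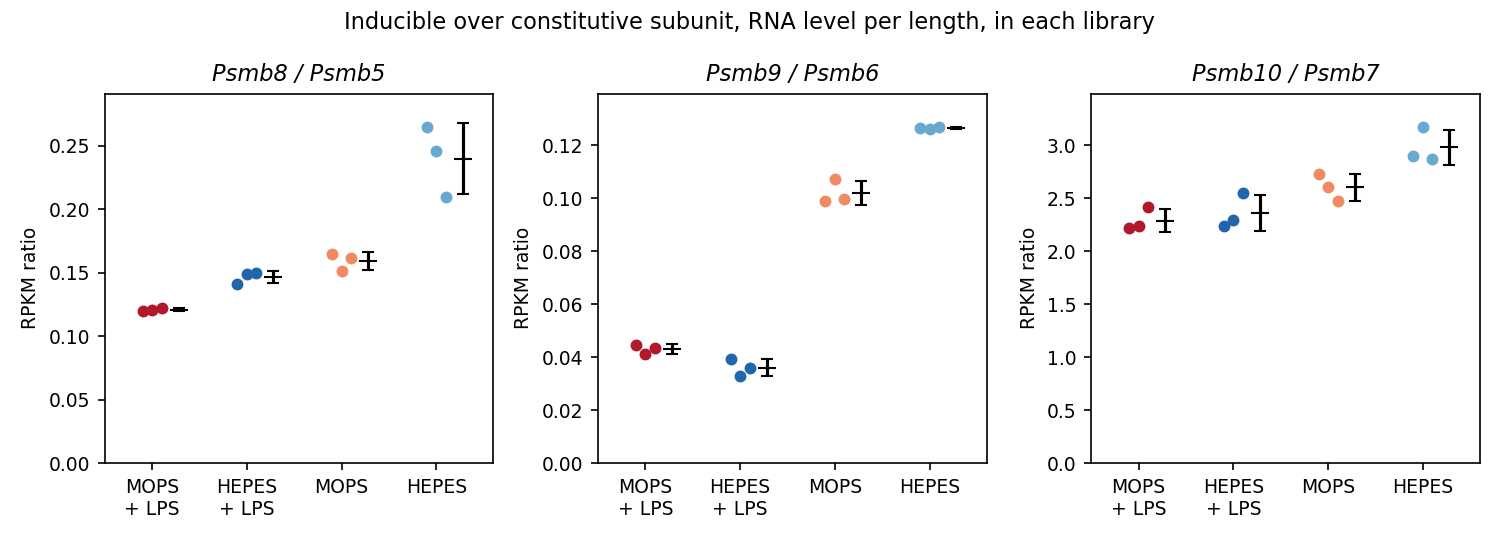
Ratio of inducible over constitutive subunit, each as RPKM (vertical axis, from 0), in each of the 12 libraries (points) by group, with the mean and SD of 3 libraries at the right of the points. All 6 LPS libraries lie below the untreated libraries of their medium in each pair, and the order of the media in Psmb9 over Psmb6 differs between LPS and untreated libraries.

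Subunits and chaperones that the name rule does not catch were read beside the family. The ubiquitin receptor Adrm1, the small lid subunit Sem1 and the core chaperone Pomp were all 3 called higher with LPS in both media. Over all tested genes 34.1% were higher in MOPS and 35.6% in HEPES. Total counts gave 0 of the 3 higher with 1 lower in MOPS and 1 higher with 2 lower in HEPES. Without LPS Adrm1 was higher in MOPS, by 0.27 ± 0.051, while Sem1 and Pomp were lower, by -0.35 ± 0.040 and -0.17 ± 0.048. With LPS 0 of the 3 were called between the media, where 26.9% of all tested genes were higher and 26.9% lower, while total counts called Adrm1 (0.16) and Sem1 (0.096) higher in MOPS. The LPS change was lower in MOPS for Adrm1, by -0.20 ± 0.072, a call lost under total counts (-0.13, adjusted p = 0.161 by edgeR), and higher for Sem1, by 0.36 ± 0.056, a call kept there (0.43).

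Factors that bind the proteasome or deliver substrates were read next. Of 14 measured, 9 were higher and 1 lower in MOPS between untreated libraries, against 24.3% and 25.4% of all tested genes. Between LPS libraries 7 were higher and 2 lower in MOPS, against 26.9% each of all tested genes. Ecpas, a proteasome-binding scaffold, was higher by 0.48 ± 0.043 without LPS and 0.67 ± 0.045 with it, and Ubqln2, a ubiquitin shuttle, by 0.35 ± 0.047 and 0.48 ± 0.050. Zfand2a, an arsenite-inducible proteasome binder, was lower in MOPS, by -0.31 ± 0.047 and -0.50 ± 0.050. Txnl1, a thioredoxin of the regulatory particle, rose with LPS under both scalings, by 0.96 ± 0.039 in MOPS and 1.27 ± 0.039 in HEPES, while of all 14 factors 7 were higher and 2 lower in MOPS (all tested genes: 34.1% and 34.9%) and 8 and 3 in HEPES (35.6% and 41.2%), turning to 2 higher with 9 lower and 2 higher with 10 lower under total counts. The LPS change was higher in MOPS for 2 and lower for 5 of the 14, against 21.9% and 17.6% of all tested genes, and the balance turned to 4 higher and 1 lower under total counts.

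Genes that control proteasome transcription moved apart from each other. Nfe2l1 encodes Nrf1, which drives all constitutive subunits when the proteasome is impaired; it rose with LPS under both scalings, by 0.84 ± 0.038 in MOPS and 1.05 ± 0.038 in HEPES. Nfe2l2, which encodes the antioxidant regulator Nrf2, was lower in MOPS without LPS, by -0.79 ± 0.035, and higher with it, by 0.26 ± 0.035. It rose with LPS by 1.43 ± 0.035 in MOPS and 0.38 ± 0.035 in HEPES, the last turning to -0.21 under total counts, a difference of 1.05 ± 0.049 between the media. Irf1, which drives the inducible subunits after interferon, rose with LPS under both scalings, by 1.88 ± 0.048 in MOPS and 1.66 ± 0.048 in HEPES. Nlrc5, the MHC class I transactivator, was lower in MOPS, by -0.75 ± 0.081 without LPS and -1.01 ± 0.084 with it, and Ddi2, the protease that activates Nrf1, fell with LPS under both scalings, with log2 changes of -1.40 ± 0.051 in MOPS and -1.41 ± 0.052 in HEPES. Over all 7 genes of this list 4 were higher and 1 lower with LPS in MOPS and 5 higher and 1 lower in HEPES (3 and 3, and 2 and 4, under total counts). Over all tested genes the shares were 34.1% higher and 34.9% lower in MOPS and 35.6% and 41.2% in HEPES.

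The partners of the immunoproteasome in MHC class I loading and the ubiquitin genes closed the set. Between the untreated media 3 of 9 loading genes were higher in MOPS and 2 lower, near the 24.3% and 25.4% of all tested genes, and among the lower was B2m, the MHC class I light chain, at -0.37 ± 0.040. Between the media with LPS the counts were 2 higher and 2 lower, near the 26.9% each of all tested genes. For LPS over untreated 6 were higher and 1 lower in MOPS, against 34.1% and 34.9% of all tested genes, and 6 higher and 2 lower in HEPES, against 35.6% and 41.2%, but total counts gave 0 higher with 8 lower and 0 higher with 7 lower. Tapbp, or tapasin, rose by 0.51 ± 0.038 in MOPS and 0.41 ± 0.038 in HEPES, and under total counts it was not called in MOPS and was called lower, at -0.18, in HEPES. Of the 6 ubiquitin genes, Ubb, a polyubiquitin gene, rose under both scalings, by 0.63 ± 0.039 in MOPS and 0.80 ± 0.039 in HEPES. Uba1, the main ubiquitin-activating enzyme, rose by 0.45 ± 0.036 in MOPS (-0.07, not called, under total counts) and 0.73 ± 0.036 in HEPES, a difference of -0.28 ± 0.051. Of the list, 4 rose in MOPS, with 0 lower, and 3 rose in HEPES, with 0 lower, where total counts gave 1 higher with 1 lower in MOPS and 3 higher with 2 lower in HEPES. The shares of all tested genes were again 34.1% and 34.9% in MOPS and 35.6% and 41.2% in HEPES.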

How the data were processed

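The table holds gene counts for 12 libraries of mouse resident peritoneal macrophages, deposited by the authors as raw whole-number counts per gene. CASAVA 1.8, HISAT2 2.0.5, featureCounts 1.5.0-p3 and mm10 are named, per the submitters' processing notes, without their roles; the sources used here do not give an annotation release or strand setting. Groups were read from the buffer and LPS labels. Counts were scaled by TMM, filtered with filterByExpr and fitted in 1 means model of the 4 groups with edgeR 4.0.16 (robust quasi-likelihood, R 4.3.3), with Benjamini-Hochberg adjustment over 14506 genes and a threshold of 0.05; the SE is the size of the log2 change over the square root of F. The common biological coefficient of variation was 4.62% with 8 residual degrees of freedom before shrinkage. Libraries of a group differed by more than counting noise (chi-square per degree of freedom 2.79 to 7.10), so none was merged.

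Ratios of inducible to constitutive subunits were tested by exact permutation within strata on the log2 scale. On simulated counts for 14064 genes, 68%, 92%, 98% and 100% of genes changed 1.25, 1.5, 2 and 3-fold were recovered for MOPS over HEPES with LPS, and 48%, 86%, 96% and 100% for the difference of LPS changes. There were 9 and 11 false calls. Each fold was set in 50 genes, balanced up and down, at a mean of 5 CPM or more and in MOPS with LPS only. All other genes were equal between groups, so the simulation cannot show how scaling affects the LPS results. Alternatives were RLE factors, total counts, no filterByExpr, DESeq2 1.42.0, 2-group fits and leaving out each library. The members and gene lists were chosen with earlier results of these data known. Library values are given for the catalytic pairs, PA28 and, in each comparison, the 3 largest called changes each way at 5 CPM or more; from each list at most 4 genes with the smallest p in a comparison are named. The 6 genes that overlap another with at least 10% of their count, among them Psmb9 with Tap1 and Psmb7 with Nek6, and the near copies Psme2 and Psme2b, are uncertain in how reads were split. Promoter windows came from RefSeq (GRCm38.p6), and 8 of the 49 genes had none there.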

Additional observations from a re-analysis of the deposited data

Results flagged for a closer look

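For 19 of the 49 proteasome genes the LPS change differed between the media by the test of the difference itself (edgeR, adjusted p under 0.05), given here as the log2 change with LPS in MOPS minus that in HEPES. That share lies near the 5719 of 14506 over all tested genes. By direction 15 of the 49 were lower and 4 higher, against 17.6% and 21.9% of all tested genes. In the regulatory particle the difference was -0.42 for Psmd11, -0.34 for Psmd14, -0.33 for Psmc6, -0.30 for Psmd3, -0.30 for Psmd12, -0.26 for Psmd1, -0.24 for Psmd6, -0.23 for Psmc5, -0.22 for Psmd2 and -0.15 for Psmc2. In the constitutive core it was -0.35 for Psma6, -0.16 for Psmb6 and 0.21 for Psma5. In the caps and chaperones it was -0.35 for Psme3, -0.16 for Psme4, -0.33 for Psmd5 and 0.44 for Psmg2. In the inducible subunits it was 0.33 for Psmb8 and 0.40 for Psmb9. Under total counts 15 of the 19 calls held in the same direction and 4 were lost, those of Psmb6, Psmc2, Psmc5 and Psme4. Other genes were newly called higher there, so the excess of lower over higher changes in the family was not kept under total counts. Leaving out single libraries removed the calls of Psma5, Psmb6, Psmc2, Psme4 and Psmg2 at least once, and the other 14 passed in all 12 fits.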

How the results depend on the processing

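The counts of called genes stayed within 1.5 times the reported ones under every alternative run: 31 for MOPS over HEPES untreated (25 to 34 on leaving out a library), 27 with LPS (23 to 27), 39 for LPS in MOPS (38 to 40), 44 for LPS in HEPES (43 to 45) and 19 for the difference of LPS changes (17 to 22). Single calls were less stable than these totals: on leaving out at least 1 library, 8 of the 31, 8 of the 27, 1 of the 39, 2 of the 44 and 5 of the 19 lost their call. Total counts in place of TMM turned the LPS change of Psmb8 (-0.35), Psmb10 (-0.0558) and Psme1 (-0.17) in MOPS and of Psmb10 (-0.26), Psmb5 (-0.0541) and Psme1 (-0.30) in HEPES below 0. Of the called genes, 7 took the opposite call in MOPS and 11 in HEPES under total counts. The medium difference of Psmb10 over Psmb7 was -0.0959 (exact permutation p = 0.14) with group medians and -0.139 to -0.0909 on leaving out a library. That of Psmb9 over Psmb6 was -0.0583 to 0.00511, turning sign without HEPES with LPS replicate 10, and its test was not passed in any of these. The other ratio tests held, with -0.481 to -0.396 (medium) and -0.596 to -0.512 (LPS) for Psmb8 over Psmb5, -1.56 to -1.50 for Psmb9 over Psmb6 and -0.290 to -0.239 for Psmb10 over Psmb7 (LPS). No paired analysis was possible because the groups share no replicate numbers. Psma8 and Psmc3ip, at about 1 CPM, were limited by depth.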
